A study of Astyanax mexicanus with 18 samples.

Results

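The 93 genes described here are the molecular chaperones, their cochaperones and the factors of the unfolded protein response that the liver of the Mexican tetra, Astyanax mexicanus, expressed. They were chosen by gene name: the heat shock proteins outside mitochondria, the DnaJ (HSP40) families A, B and C, the subunits of the CCT ring, the protein disulfide isomerases named pdia, calnexin, calreticulin, the BAG cochaperones, and hyou1, sdf2l1, manf, the herpud genes, xbp1, atf4, ddit3 and eif2ak3. Among 27420 genes listed, 108 carried such a name, and the 93 kept had at least 1 TPM in at least 3 libraries. TPM, the abundance unit of the deposited table, corrects for transcript length, so levels of different genes can be compared on it. By name, 31 members were counted in the endoplasmic reticulum (ER) and 7 as mitochondrial DnaJ proteins, while atf4a and ddit3 are transcription factors of the integrated stress response. The 53 remaining members were counted as cytosolic, which here takes in the cytosol, nucleus and vesicles. The names atf6 and ern1 were searched for as well, but none of the 108 genes carried either, so these genes were not analysed here.

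The 15 genes under the level limit comprised 13 cytosolic genes, pdia2 and dnajc11b, and 6 of them, all small heat shock proteins, were listed at 0 in every library. Just inside the limit were bag5 and bag2, whose third-highest libraries had 1.62 and 1.76 TPM. Just outside were dnajc11b, with 1 library at or above 1 TPM and a third-highest value of 0.75 TPM, and dnajc6, with 2 such libraries and a third-highest value of 0.53 TPM.

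The study compared liver RNA of blind Pachón cavefish and of sighted surface fish, which belong to the same species, after a fast and after a meal. The groups were refed Pachón cavefish, starved Pachón cavefish, refed surface fish and starved surface fish, each with 3 RNA-seq libraries of whole liver from fish 4 months old. All of them went without food for 4 days, and the refed ones were then given 10 mg of feed, with dissection 3 hours after it. The labels name no genotype or agent beyond population and feeding. The p-values here rest on the spread of libraries within their groups, estimated from all 12 libraries together.

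Chaperones hold and fold new or damaged proteins. In the cytosol HSP70 proteins bind unfolded stretches with the help of DnaJ cochaperones, and HSP110 and several BAG proteins release the bound nucleotide. HSP90 finishes a range of client proteins, and the CCT ring folds actin and tubulin. In the ER, which is heavily used by hepatocytes because they secrete most plasma proteins, the HSP70 protein BiP, the HSP90 protein GRP94, the lectins calnexin and calreticulin and the protein disulfide isomerases do this work, and when unfolded proteins build up there the unfolded protein response raises their genes through sensors such as PERK and through the factors XBP1 and ATF4.

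The depth of the libraries is unknown, since TPM does not keep it. Each library had 10952 to 12123 genes at or above 1 TPM, and its 10 most abundant genes held 24.9% to 32.8% of all TPM. Among the 13 hepatocyte markers, whose summed level was 150737 to 237220 TPM in 11 libraries, replicate 2 of starved surface fish stood apart with 85098 TPM, and none of the 13 was under 1 TPM in all libraries. There fabp10a had 27975 TPM, against 84550 and 78773 TPM in the other starved surface libraries, and hpx 3286, against 28996 and 26288 TPM. Most other markers were also lowest of their group there. But ambp had 9575 TPM, against 9446 and 13641 TPM, and fgg 4700, against 4519 and 5075 TPM. A pair of surface libraries also stood apart in the ER members, replicate 3 of refed surface fish and replicate 2 of starved surface fish. In bulk liver, fewer cells of a type and less RNA per cell cannot be told apart.

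At 3 hours after the meal a larger share of the chaperone genes than of all genes was called higher in both populations. But 47 of the 93 members were not called in Pachón cavefish, and 72 were not called in surface fish. In Pachón cavefish 43 of 93 members were called higher and 3 lower by limma at an adjusted p under 0.05, where 22.9% of all genes tested were called higher and 7.64% lower. In surface fish 17 members were called higher and 4 lower, against 9.03% and 9.68% of all genes, and 72 were not called. The median log2 fold change of the members, refed over starved on the log2(TPM + 1) scale, was 0.87 in Pachón cavefish and 0.42 in surface fish, where the median of all genes was 0.17 and -0.04. This scale understates the change of genes with low levels. By calls, 16 members were higher in both populations, 27 were called higher in Pachón cavefish alone and dnajb9a in surface fish alone, hspbap1 and dnajc28 were lower in both, and 44 were called in neither. A call in 1 population alone does not show that the populations differ, and the test of that difference follows the comparison of populations.

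With median-of-ratios scaling in place of TPM the median of all genes moved to -0.02 in Pachón cavefish, and the calls over all genes moved to 2272 higher and 1759 lower, against 3019 and 1005 on TPM. In surface fish the split was 1525 higher and 1268 lower under that scaling and 1667 higher and 1108 lower with the 20 most abundant genes left out of the total, against 1188 and 1273. Under median-of-ratios scaling 12 ER members and 15 cytosolic ones were called higher in Pachón cavefish, with medians of 1.41 and 0.28, against 16 and 23 with medians of 1.68 and 0.52 on TPM. These medians stood above that of all genes under each scaling. The ER calls that ended under median-of-ratios scaling were those of manf, dnajc3b, dnajb12a and dnajb14. The cytosolic ones were those of dnaja1, dnajb1a, dnajc5ab, DNAJC13, dnajc22, bag6, bag6l and hspb1.

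**Figure D1:**
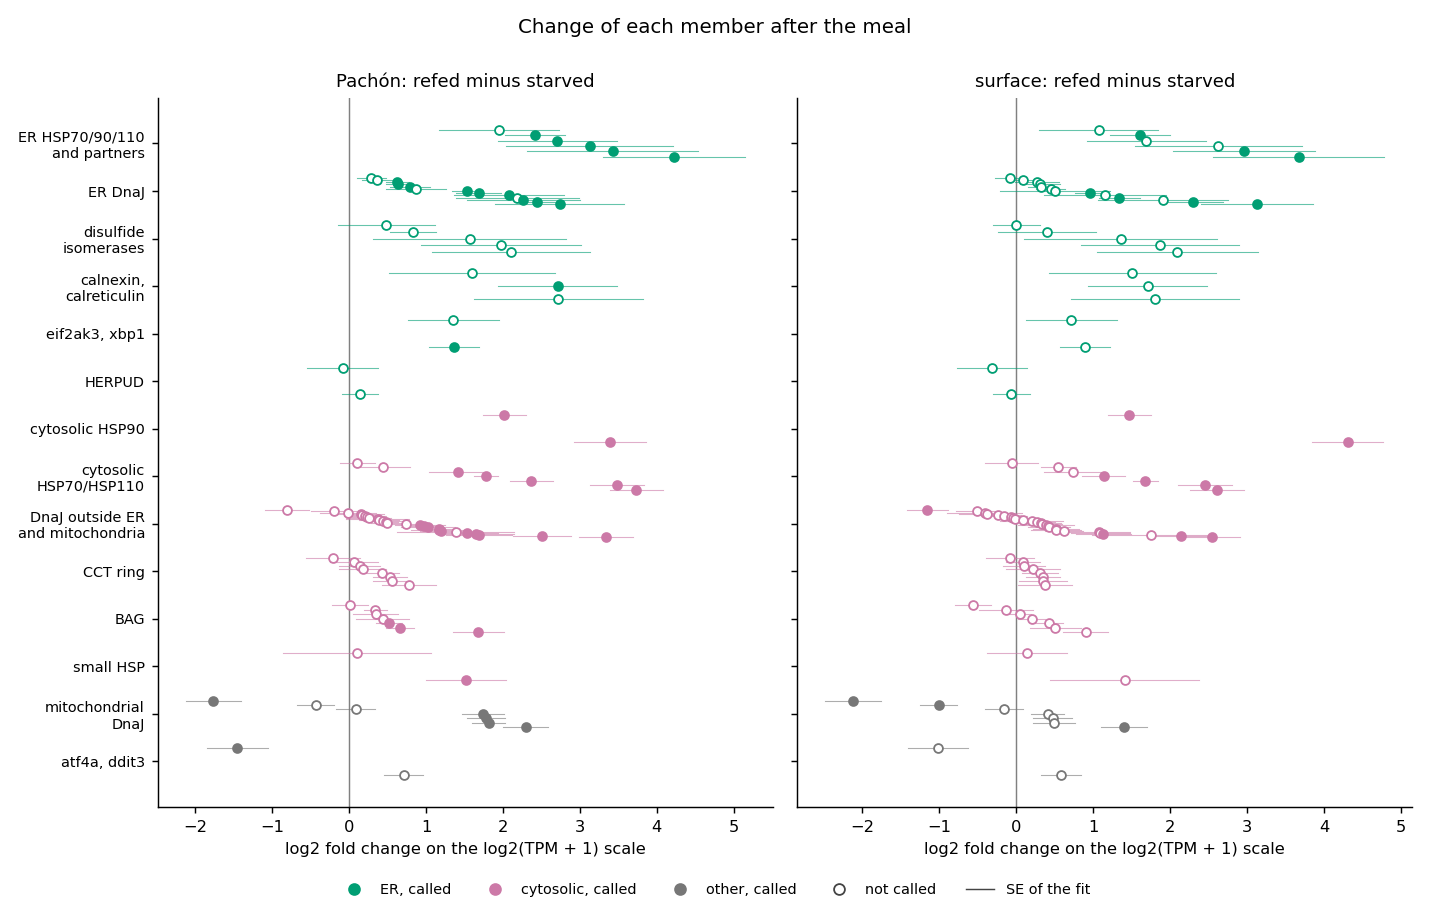
Log2 fold change of each member but hspbap1 after the meal, refed over starved on the log2(TPM + 1) scale, by role, in Pachón cavefish (left) and surface fish (right). Bars are the standard error of the limma fit, and filled points are called at an adjusted p under 0.05. The furthest point to the right is hyou1 at 4.23 in Pachón cavefish and HSP90a at 4.31 in surface fish. The 8 CCT subunits lie between -0.21 and 0.78 in Pachón cavefish and between -0.08 and 0.37 in surface fish.

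The ER members of the HSP70, HSP90 and HSP110 families and their partners had the highest median change of the ER roles in both populations: 5 of 6 rose in Pachón cavefish with a median log2 fold change of 2.92, and 3 of 6 in surface fish with a median of 2.16. hspa5 (ENSAMXG00000009012) encodes BiP, the ER HSP70 that binds unfolded chains and keeps the stress sensors inactive. It had 568, 615 and 435 TPM in refed Pachón cavefish, against 78.4, 86.3 and 16.7 TPM in starved Pachón cavefish. In surface fish it had 257, 229 and 1877 TPM in refed fish, against 6.05, 192 and 38.9 TPM in starved fish. Every refed library lay above the starved libraries of its population, with replicate 3 of refed surface fish highest of the 12 and replicate 1 of starved surface fish lowest. Refed over starved, the log2 fold change was 3.43 ± 1.12 in Pachón cavefish (± standard error, limma adjusted p = 0.037) and 3.67 ± 1.12 in surface fish (adjusted p = 0.0414). The Pachón call ended when any 1 of the 6 Pachón libraries was left out (adjusted p up to 0.14), and the surface call ended without any 1 of 9 libraries, among them replicates 1 and 3 of each surface group (up to 0.147).

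hyou1 (ENSAMXG00000014988) encodes GRP170, the ER HSP110 that recharges BiP. The level was 104, 102 and 73.5 TPM in refed Pachón cavefish, against 6.01, 7.01 and 1.19 TPM in starved Pachón cavefish. In surface fish the level was 25.1, 23.9 and 217 TPM in refed fish, against 1.53, 22.4 and 4.06 TPM in starved fish. The refed and starved libraries did not overlap in either population, but replicate 2 of starved surface fish came close to the lower refed ones. In log2 terms the change was 4.23 ± 0.92 in Pachón cavefish (adjusted p = 0.00529), a call that stood under all alternatives tried, and 2.96 ± 0.92 in surface fish (adjusted p = 0.0456), a call that ended without any 1 of 8 libraries, among them replicate 3 of refed and replicates 1 and 3 of starved surface fish (up to 0.151).

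The ER HSP90 gene hsp90b1 (ENSAMXG00000010077), which encodes GRP94, was measured at 411, 437 and 371 TPM in refed Pachón cavefish, against 136, 171 and 48.4 TPM in starved Pachón cavefish. In surface fish the values were 189.95, 241 and 1318 TPM in refed fish, against 133, 512 and 95.1 TPM in starved fish. Refed Pachón libraries all stood above starved ones, while in surface fish the groups overlapped because replicate 2 of the starved fish exceeded the lower refed ones. The log2 fold changes of 1.95 ± 0.78 (adjusted p = 0.0788) and 1.07 ± 0.78 (adjusted p = 0.372) did not pass the test, which the Pachón one did without replicate 3 of refed or replicate 2 of starved surface fish (adjusted p down to 0.0325). A less abundant ER HSP70, hspa13 (ENSAMXG00000042300), had 9.47, 6.33 and 7.78 TPM in refed Pachón cavefish, against 0.88, 0.69 and 0.38 TPM in starved Pachón cavefish, and 6.49, 4.69 and 16.6 TPM in refed surface fish, against 1.03, 3.33 and 2.02 TPM in starved surface fish. Refed libraries exceeded starved ones in both populations, by 2.42 ± 0.39 in log2 in Pachón cavefish (adjusted p = 0.000939) and 1.61 ± 0.39 in surface fish (adjusted p = 0.0166, and 0.0556 without replicate 1 of starved surface fish).

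manf (ENSAMXG00000040494), a small ER protein that binds BiP and can be secreted, and sdf2l1 (ENSAMXG00000029289), a partner of the ER cochaperone ERdj3, rose in Pachón cavefish and did not pass the test in surface fish. manf had 51.2, 52.4 and 42.8 TPM in refed Pachón cavefish, against 9.53, 7.42 and 1.06 TPM in starved Pachón cavefish. sdf2l1 had 48.2, 50.2 and 37.1 TPM in refed Pachón cavefish, against 7.77, 8.02 and 3.36 TPM in starved Pachón cavefish. For both genes the Pachón groups were apart, and the log2 fold changes were 3.13 ± 1.08 for manf (adjusted p = 0.048) and 2.71 ± 0.77 for sdf2l1 (adjusted p = 0.0204). The manf call ended without any 1 of the 6 Pachón libraries or any 1 of 3 surface libraries (up to 0.172), and that of sdf2l1 without replicate 1 or 2 of refed or replicate 3 of starved Pachón cavefish (up to 0.0787). Among surface fish manf had 36.2, 34.6 and 230.33 TPM in refed fish, against 1.44, 64.1 and 7.24 TPM in starved fish. The starved library with 64.1 TPM exceeded the lower refed libraries, and the log2 fold change was 2.62 ± 1.08 (adjusted p = 0.115).

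**Figure D2:**
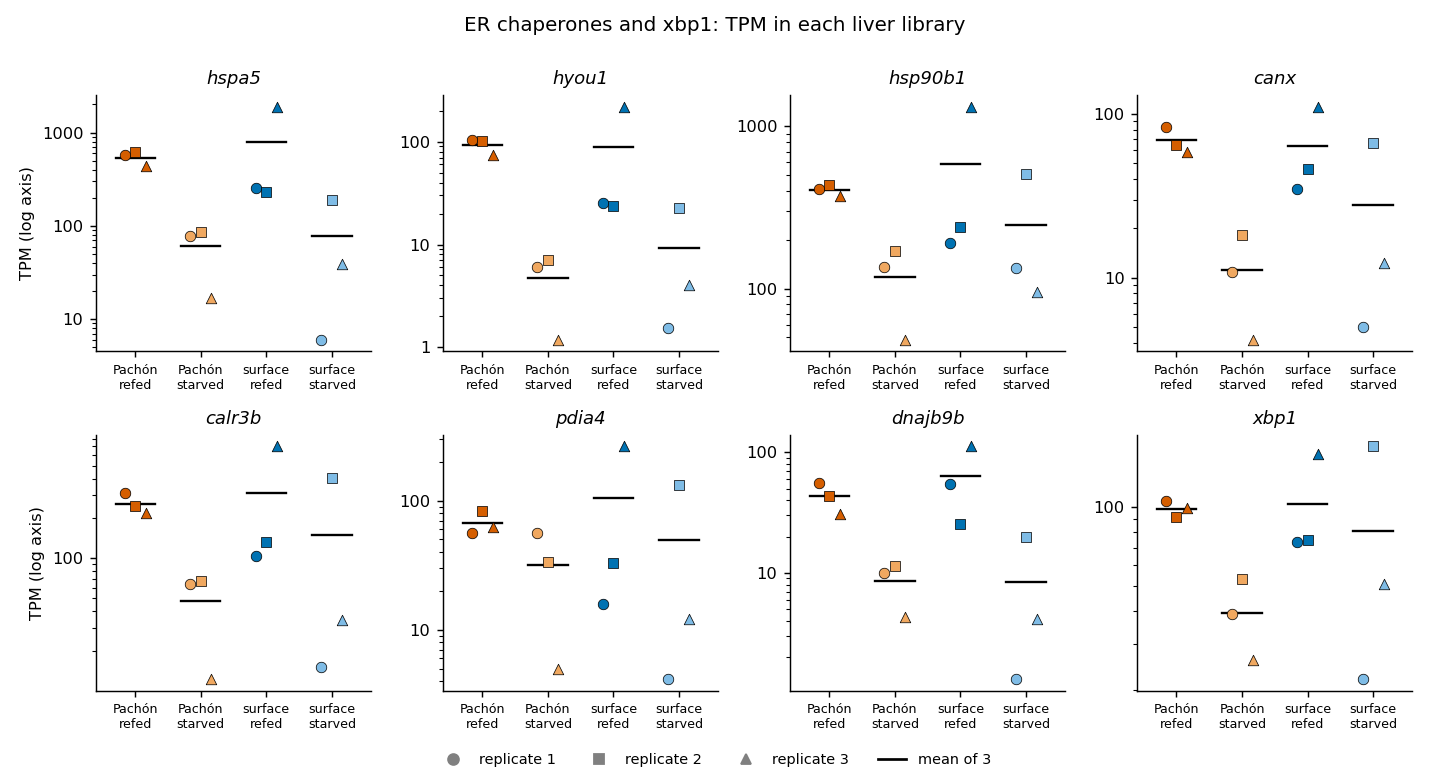
TPM of 8 ER members in each library on a log axis, with groups in the order refed Pachón, starved Pachón, refed surface and starved surface. Points are libraries, shaped by replicate number, and bars are means of 3. In Pachón cavefish the refed points lie above the starved ones in all 8 panels except for pdia4, and in surface fish replicate 3 of the refed and replicate 2 of the starved group lie above the others of their group.

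The ER DnaJ proteins deliver substrates to BiP or reduce and retrieve misfolded ones, and 9 of 13 rose in Pachón cavefish (median log2 fold change 1.53) and 4 of 13 in surface fish (median 0.50). The most clearly changed was dnajc10 (ENSAMXG00000014864), which encodes ERdj5, a reductase that opens wrong disulfide bonds. It had 10.9, 7.01 and 5.85 TPM in refed Pachón cavefish, against 0.78, 0.51 and 0.49 TPM in starved Pachón cavefish. In surface fish there were 3.06, 1.61 and 4.31 TPM in refed fish, against 0.46, 0.48 and 0.61 TPM in starved fish. No starved library reached 1 TPM and no refed one was below 1.61 TPM. The change in log2 was 2.45 ± 0.27 in Pachón cavefish (adjusted p = 0.000174) and 1.34 ± 0.27 in surface fish (adjusted p = 0.00678), and both calls stood under all alternatives tried. dnajc1, which encodes an ER membrane J protein, rose in both populations too, with log2 fold changes of 1.53 ± 0.20 (adjusted p = 0.000322) in Pachón cavefish and 0.96 ± 0.20 (adjusted p = 0.00755) in surface fish.

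The paralogs dnajb9b and dnajb9a encode ERdj4, a BiP cochaperone that is a classical target of XBP1 in mammals. dnajb9b (ENSAMXG00000041402) had 55.3, 43.9 and 30.8 TPM in refed Pachón cavefish, against 10.1, 11.3 and 4.27 TPM in starved Pachón cavefish, and 55.1, 25.3 and 113 TPM in refed surface fish, against 1.32, 20.04 and 4.11 TPM in starved surface fish. The refed libraries were above the starved ones in both populations. On the log2 scale the fold change was 2.27 ± 0.73 in Pachón cavefish (adjusted p = 0.0353, and up to 0.127 without any 1 of the 6 Pachón libraries) and 3.13 ± 0.73 in surface fish (adjusted p = 0.0142, and 0.057 without replicate 3 of refed surface fish). dnajb9a (ENSAMXG00000041051) had 10.2, 8.52 and 8.46 TPM in refed Pachón cavefish, against 4.09, 6.15 and 3.53 TPM in starved Pachón cavefish, and 16.1, 11.3 and 22.8 TPM in refed surface fish, against 0.95, 5.57 and 2.35 TPM in starved surface fish. Its refed libraries also lay above the starved ones in both populations, but the log2 fold change of 0.87 ± 0.39 in Pachón cavefish (adjusted p = 0.116) did not pass the test, whereas that of 2.29 ± 0.39 in surface fish did (adjusted p = 0.00325). The test of the difference between these responses gave -1.42 ± 0.55 (adjusted p = 0.244).

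Further BiP cochaperones, dnajb11 (ERdj3) and dnajc3b (p58IPK), were higher in refed Pachón cavefish by 2.74 ± 0.84 (adjusted p = 0.0289) and 2.08 ± 0.72 (adjusted p = 0.0465). Either call ended when single Pachón libraries were left out, without any 1 of the 3 refed or replicates 2 or 3 of the starved for dnajb11 (up to 0.118), and without any 1 of the 3 refed or replicates 1 or 3 of the starved for dnajc3b, and also without any 1 of 3 surface libraries (up to 0.17). The log2 fold change of dnajc3a, 2.19 ± 0.79, did not pass the test (adjusted p = 0.0571). The ER membrane J proteins dnajb12a, dnajb12b and dnajb14, whose J domains face the cytosol in mammals, rose less, by 0.63 ± 0.15, 0.64 ± 0.16 and 0.79 ± 0.26 in log2 in Pachón cavefish. The dnajb12b call ended without replicate 1 of refed Pachón cavefish (0.0551), and the dnajb14 call without any 1 of 5 Pachón libraries (up to 0.131). With median-of-ratios scaling the calls of dnajc3b, dnajb12a (adjusted p = 0.104) and dnajb14 ended. A further ER membrane J protein, dnajc25, had 37.5, 32.3 and 29.8 TPM in refed Pachón cavefish, against 7.98, 15.1 and 7.2 TPM in starved Pachón cavefish, a log2 fold change of 1.68 ± 0.29 (adjusted p = 0.00133). Its Pachón groups were apart. In surface fish it had 29.5, 25.4 and 38.4 TPM in refed fish, against 20.8, 33.2 and 23.3 TPM in starved fish, and these groups overlapped.

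Of the lectin chaperones, which hold glycoproteins while they fold, canx rose in Pachón cavefish and none of the 3 passed the test in surface fish, although the medians were 2.71 and 1.71. canx (ENSAMXG00000015162) encodes calnexin and had 83.3, 65.1 and 58.6 TPM in refed Pachón cavefish, against 10.8, 18.3 and 4.18 TPM in starved Pachón cavefish. In surface fish it had 34.7, 46 and 110.37 TPM in refed fish, against 5.01, 66.1 and 12.3 TPM in starved fish. The Pachón groups were apart and the surface groups overlapped. The log2 fold change was 2.71 ± 0.77 in Pachón cavefish (adjusted p = 0.0205, and up to 0.0857 without replicate 1 of refed or replicate 3 of starved Pachón cavefish) and 1.71 ± 0.77 in surface fish (adjusted p = 0.148). The calreticulin gene calr3b had a log2 fold change of 2.72 ± 1.10 in Pachón cavefish, as large as that of canx but with a wider error (adjusted p = 0.0823): it had 309, 249 and 220.09 TPM in refed Pachón cavefish, against 64.6, 67.5 and 12.3 TPM in starved Pachón cavefish. Its relative CALR3 (1 of many) had 237, 342 and 263 TPM in refed Pachón cavefish, against 151, 144 and 34.1 TPM in starved Pachón cavefish, and these groups were also apart without a call.

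The 5 protein disulfide isomerases, which form and reshuffle disulfide bonds, were called in neither refeeding comparison, with median log2 fold changes of 1.57 in Pachón cavefish and 1.36 in surface fish and a lowest adjusted p of 0.0571 and 0.189. pdia4 had 55.7, 83.8 and 62.7 TPM in refed Pachón cavefish, against 56.6, 33.4 and 4.94 TPM in starved Pachón cavefish, and 16, 32.8 and 263 TPM in refed surface fish, against 4.17, 131 and 12.2 TPM in starved surface fish. The starved Pachón libraries spanned from 4.94 to 56.6 TPM and the refed surface libraries from 16.0 to 263 TPM, so the groups overlapped in both populations. Refed over starved, the log2 fold change was 1.57 ± 1.25 in Pachón cavefish (adjusted p = 0.384) and 1.36 ± 1.25 in surface fish (adjusted p = 0.492). For pdia6 it was 2.10 ± 1.03 in Pachón cavefish (adjusted p = 0.148), with 79.5, 96.35 and 62.6 TPM in refed against 38.1, 25.7 and 5 TPM in starved fish. In 3 of the 5, pdia6, PDIA6 and pdia5, all refed Pachón libraries lay above all starved ones, where 35.7% of all genes did so. In surface fish 0 of the 5 were apart in this way, where 14.9% of all genes were. pdia3, with a mean of 394 TPM over the 12 libraries, works on glycoproteins with calnexin and calreticulin. It had 386, 484 and 448 TPM in refed Pachón cavefish, against 495, 376 and 163 TPM in starved Pachón cavefish, and these groups overlapped.

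Of the genes that signal ER stress, the sensor gene eif2ak3 rose in Pachón cavefish, while the factor xbp1 was called in neither population with all libraries. eif2ak3 encodes PERK, which slows translation, and had 7.5, 5.22 and 5.35 TPM in refed Pachón cavefish, against 1.69, 2.25 and 1.26 TPM in starved Pachón cavefish. The groups were apart, with a log2 fold change of 1.36 ± 0.32 (adjusted p = 0.00827) that stood under all alternatives tried. In surface fish the log2 fold change was 0.89 ± 0.32 (adjusted p = 0.0777). xbp1 (ENSAMXG00000038830), whose spliced form is the transcription factor of the IRE1 branch, had 105, 91.7 and 99.1 TPM in refed Pachón cavefish, against 39.1, 53.3 and 26 TPM in starved Pachón cavefish, and 73.4, 75.1 and 159 TPM in refed surface fish, against 22.1, 171 and 50.7 TPM in starved surface fish. In Pachón cavefish the refed libraries were above the starved ones, and in surface fish replicate 2 of the starved group was the highest of all 12. The log2 fold changes were 1.36 ± 0.60 (adjusted p = 0.109) and 0.72 ± 0.60 (adjusted p = 0.441), and xbp1 passed the test in Pachón cavefish without replicate 1 or 2 of starved surface fish (adjusted p down to 0.0227) and in surface fish without replicate 2 of the starved. TPM per gene do not tell the spliced from the unspliced form. The herpud genes, whose products act in ER-associated degradation, were called in neither population: herpud1 had 20.9, 28.6 and 18.7 TPM in refed Pachón cavefish, against 20.8, 26.4 and 24.6 TPM in starved Pachón cavefish.

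The factors of the integrated stress response, which PERK and other kinases switch on, did not move alike. atf4a had 109, 112 and 109 TPM in refed Pachón cavefish, against 48.7, 70.6 and 86.8 TPM in starved Pachón cavefish, and 92.6, 72.1 and 117 TPM in refed surface fish, against 51.9, 67.5 and 65.7 TPM in starved surface fish. All refed libraries exceeded the starved ones of their population, but the log2 fold changes of 0.71 ± 0.26 in Pachón cavefish (adjusted p = 0.057) and 0.58 ± 0.26 in surface fish (adjusted p = 0.141) did not pass the test, which the Pachón one did without replicate 3 of starved Pachón cavefish (0.0405). ddit3 (ENSAMXG00000037250) encodes CHOP, a factor linked to cell death under prolonged ER stress, and was lower after the meal in Pachón cavefish, with 2.43, 3.93 and 2.4 TPM in refed Pachón cavefish, against 7.06, 11.6 and 10.6 TPM in starved Pachón cavefish. The refed libraries were all below the starved ones. In log2 terms the change was -1.45 ± 0.40 (adjusted p = 0.0165), and the call ended without replicate 1 or 3 of refed or replicate 2 or 3 of starved Pachón cavefish (up to 0.0594). In surface fish it had 8.53, 2.96 and 6.94 TPM in refed fish, against 15.7, 6.73 and 18.3 TPM in starved fish, which overlapped, with a log2 fold change of -1.02 ± 0.40 (adjusted p = 0.096).

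Within each group but refed Pachón cavefish the ER members varied more between libraries than other genes did, and the same few libraries were high or low for most of them. Their summed level was 2787, 3002 and 2451 TPM in refed Pachón cavefish, against 1213, 1144 and 408 TPM in starved Pachón cavefish. In surface fish it was 1383, 1476 and 7489 TPM in the refed, against 464, 3177 and 657 TPM in the starved. Thus the sum of replicate 2 of starved surface fish was above those of replicates 1 and 2 of refed surface fish. The median ratio of the highest to the lowest library within a group, taken over the ER members with 1 TPM added, was 1.31 in refed Pachón cavefish, 2.07 in starved Pachón cavefish, 3.12 in refed surface fish and 5.91 in starved surface fish, where all genes had 1.36, 1.38, 1.49 and 1.51.

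Replicate 3 of refed surface fish was the highest of its group in 29 of 31 ER members (93.5%, against 48.7% of all genes) and the highest of all 12 libraries in 19 of 31 (61.3%, against 12.2%), but in only 8 of 53 cytosolic members (15.1%). Replicate 2 of starved surface fish was the highest of its group in 28 of 31 ER members (90.3%, against 50.0%), replicate 1 of that group the lowest in 23 (74.2%, against 40.6%), and replicate 3 of starved Pachón cavefish the lowest of its group in 24 (77.4%, against 40.5%). Beside this spread, the 15 macrophage markers summed to 220 to 297 TPM in refed and 187 to 515 TPM in starved Pachón cavefish, and to 196 to 809 TPM in refed and 352 to 515 TPM in starved surface fish. Of the 15, 5 were under 1 TPM in all libraries, and of the 809 TPM of replicate 3 of refed surface fish 298 and 276 TPM came from a pair of MFAP4 copies. The defining macrophage gene csf1ra had 8.36 TPM there, against 13.2 and 0.35 TPM in the other refed surface libraries. But c1qa, c1qb, c1qc and cd74a were highest of that group there, with cd74a at 142, against 69.1 and 105 TPM. So was a further MFAP4 copy (12.1, against 2.12 and 1.5 TPM), whereas lgmn was lowest (54.5, against 112 and 59.5 TPM). In replicate 1 of starved surface fish c1qa, c1qb, c1qc and cd74a were higher still, with cd74a at 292 TPM. The 5 adipocyte markers summed to 603 TPM in that library and to at most 397 TPM in the others. Of the 603 TPM lpl alone held 566 TPM, and cfd, at 6.89 TPM, was also highest there. cidec had 28.7 TPM there, against 17.5 and 24.5 TPM in the other refed and 38.3, 28.6 and 30.3 TPM in the starved surface libraries. The hepatocyte sum of replicate 2 of starved surface fish was the low one given above. In replicate 3 of refed surface fish that sum was 186063, against 237220 and 223995 TPM, and the markers did not move alike. There fgb, fgg, apoba, ambp, ttr and the c3a copies were highest of the group. fgg had 10029, against 4820 and 3511 TPM, and c3a.1 6832, against 2009 and 2176 TPM. fabp10a, apoa2, apobb.1, hpx and cp were lowest of the group there. The 10 exocrine pancreas markers summed to at most 36.0 TPM in any library. The 14 intestine markers summed to 1971, 989 and 1508 TPM in refed Pachón cavefish, against 983, 715 and 785 TPM in starved Pachón cavefish. These sums were narrowly apart, but the markers did not move alike there. chia.4 overlapped, with 314, 564 and 528 TPM in refed and 451, 482 and 585 TPM in starved Pachón cavefish. So did the most abundant apoa4a copy, while another copy was apart (405, 41.9 and 169 against 13.9, 26.4 and 13 TPM). anpepb was lower in each refed Pachón library (29.9, 16.7 and 15.5 against 34, 34.3 and 30.7 TPM). In surface fish the sums were 661, 1049.97 and 1636 TPM in refed fish, against 697, 649 and 1995 TPM in starved fish, which overlapped. Of the 14, 6 were under 1 TPM in all libraries, among them vil1 and, at 0, cdx1b, and most of the sum came from chia.4 and apoa4a copies. The intestine gene fabp2 had 121 TPM in replicate 3 of starved surface fish and at most 14.7 TPM in any other library. A pair of apoa4a copies had 750 and 455 TPM in that library. The part of these levels in the ER results of either population was not tested.

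The number of ER members called in surface fish changed with these libraries. Against 7 of 31 with all libraries, 4 were called higher without replicate 3 of refed or without replicate 1 of starved surface fish, 15 without replicate 2 of starved surface fish, 11 with both high libraries left out and 2 with a fit on the surface libraries alone. All refed libraries lay above all starved ones in 26 of 31 ER members in Pachón cavefish, where 35.7% of all genes did so, and in 8 of 31 in surface fish, where 14.9% did. The Pachón count of 16 fell to 7 without replicate 1 and to 9 and 10 without replicates 2 and 3 of the refed fish, to 8 without replicate 3 of the starved fish and to 10 with no filter on low values, and was 24 with both high surface libraries left out.

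With both high libraries left out, which was chosen after seeing the data and leaves 2 libraries in each surface group, the log2 fold changes of the surface fish were 3.86 for hspa5 (adjusted p = 0.0243) and 2.83 for hyou1 (adjusted p = 0.0179). That of manf, which had not passed the test, was 3.02 (adjusted p = 0.0338), and canx passed it too (adjusted p = 0.0399). Those of eif2ak3 and ddit3 were 0.86 (adjusted p = 0.0491) and -1.55 (adjusted p = 0.0407), likewise past the test. The surface calls of hspa14, dnajc24, dnajc4 and dnajc5ab ended, with adjusted p-values of 0.0571, 0.0603, 0.0768 and 0.171.

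The Pachón fold changes do not use these libraries, but the spread of the fit does. Without them 24 ER members were called in Pachón cavefish, and among those not called before were hsp90b1 (adjusted p = 0.0061), calr3b (adjusted p = 0.0067), dnajc3a (adjusted p = 0.0067), xbp1 (adjusted p = 0.0124), pdia6 (adjusted p = 0.0289) and dnajb9a (adjusted p = 0.0295). The integrated stress response factor atf4a also passed (adjusted p = 0.0478). The Pachón calls of dnajc22, hspb1 and dnajc5ab ended (adjusted p = 0.0604, 0.0649 and 0.0663).

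**Figure D3:**
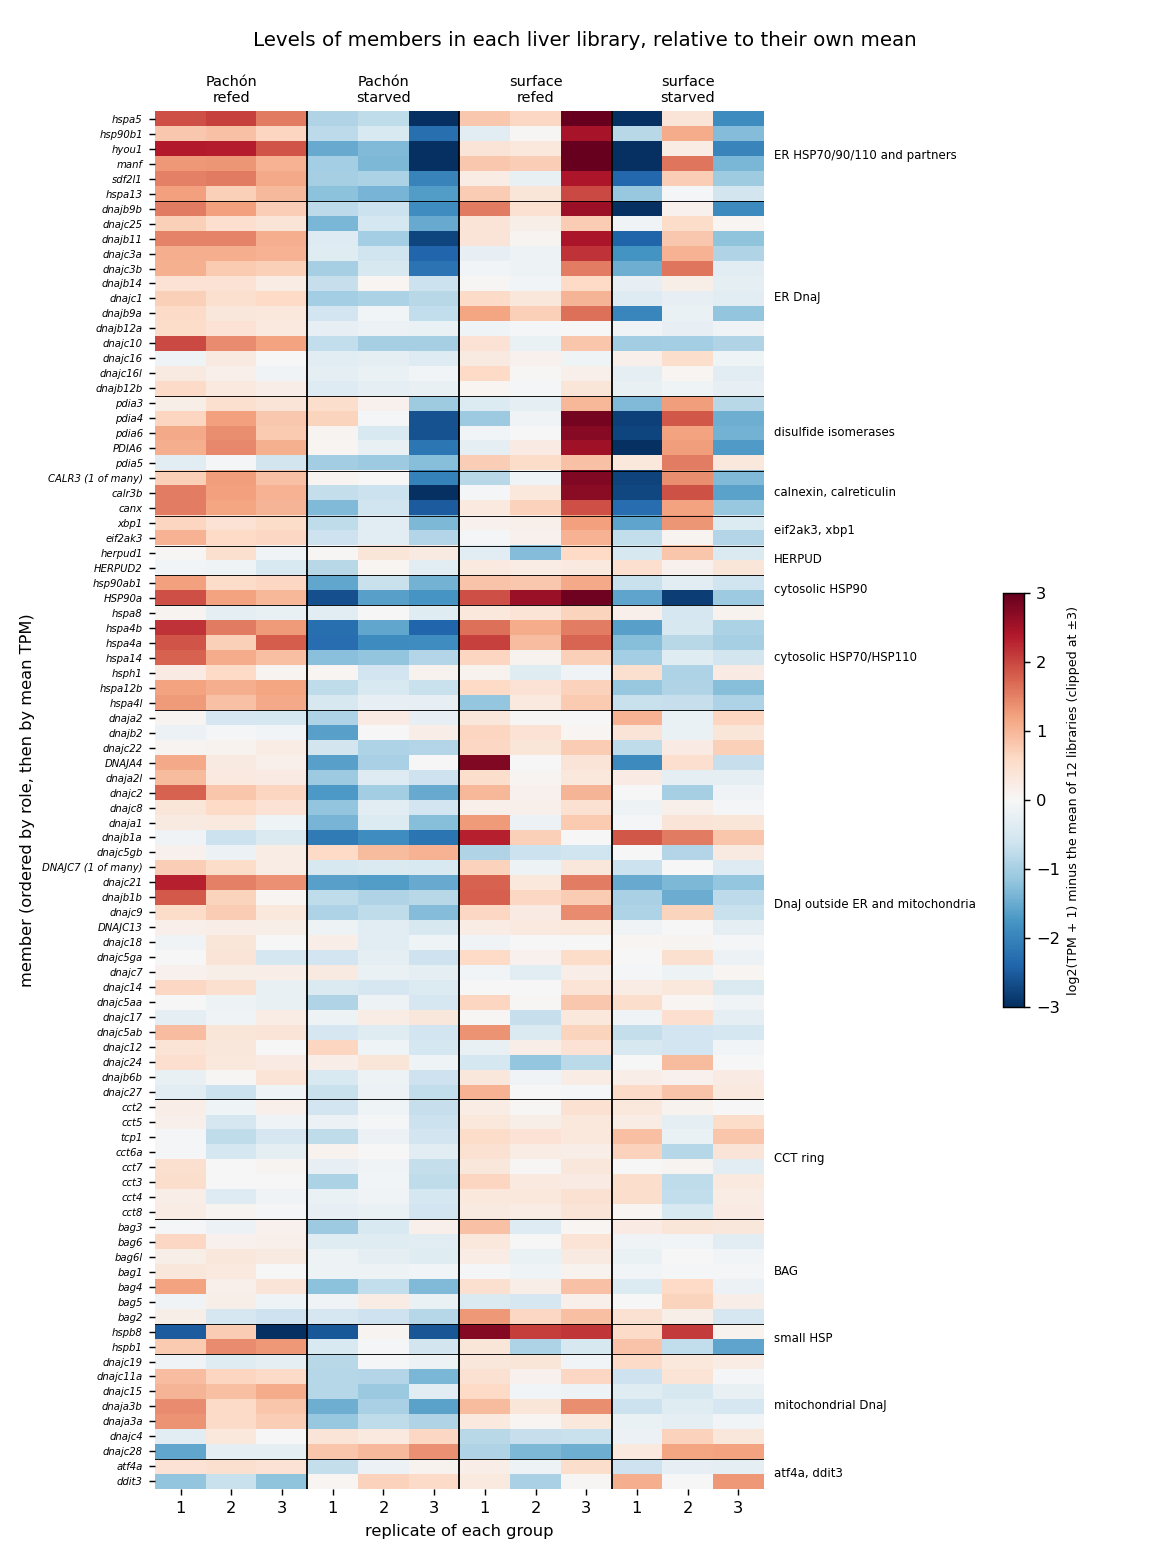
Log2(TPM + 1) of all members but hspbap1 in each library, minus the mean of the gene over the 12 libraries, with colours limited to ±3 and rows grouped by compartment and role. Among ER rows, replicate 3 of refed surface fish is the most strongly raised column and replicate 2 of starved surface fish stands out from its group. Among the 53 cytosolic members replicate 3 of refed surface fish is the highest of the 12 libraries in 8.

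Of the 53 cytosolic members 23 rose and hspbap1 fell in Pachón cavefish, where 22.9% of all genes rose and 7.64% fell. In surface fish 9 rose and 2 fell, hspbap1 and dnajc24, where 9.03% of all genes rose and 9.68% fell. Without replicate 1 of refed Pachón cavefish 13 cytosolic members rose, and 15 and 14 without replicates 1 and 3 of starved Pachón cavefish. The cytosolic HSP90 genes rose in both populations, and their groups did not overlap. HSP90a (ENSAMXG00000020572), the stress-inducible form, had 129.53, 77.5 and 66.7 TPM in refed Pachón cavefish, against 4.45, 10.02 and 8.94 TPM in starved Pachón cavefish, and 129, 204 and 258 TPM in refed surface fish, against 10.4, 3.82 and 15.1 TPM in starved surface fish. Refed libraries were far above starved ones in both populations, and the highest refed surface libraries exceeded every refed Pachón one. The change in log2 was 3.39 ± 0.46 in Pachón cavefish (adjusted p = 0.000399) and 4.31 ± 0.46 in surface fish (adjusted p = 0.00055). hsp90ab1 (ENSAMXG00000024526), the constitutive form, was more abundant, with 636, 395 and 411 TPM in refed Pachón cavefish, against 90.4, 169 and 99.95 TPM in starved Pachón cavefish, and 489.92, 474 and 589 TPM in refed surface fish, against 168, 216 and 177 TPM in starved surface fish. All refed libraries were above all starved ones of either population. It rose by 2.02 ± 0.28 (adjusted p = 0.000428) and 1.47 ± 0.28 (adjusted p = 0.00566) on the log2 scale.

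Of the 7 cytosolic HSP70 and HSP110 genes 5 rose in Pachón cavefish and 4 in surface fish, led by the HSP110 paralogs hspa4a and hspa4b, nucleotide exchange factors of HSP70, whose reads the counting could have split between the copies. hspa4b (ENSAMXG00000011616) had 117, 75.3 and 61.8 TPM in refed Pachón cavefish, against 4.44, 7.79 and 3.99 TPM in starved Pachón cavefish, and 80.4, 55.4 and 74.5 TPM in refed surface fish, against 7.46, 17.6 and 12.5 TPM in starved surface fish. Each refed library was far above the starved ones. On the log2 scale the fold change was 3.74 ± 0.35 in Pachón cavefish (adjusted p = 0.00012) and 2.45 ± 0.35 in surface fish (adjusted p = 0.00143). For hspa4a (ENSAMXG00000020109) the values were 56.3, 24.6 and 53.3 TPM in refed Pachón cavefish, against 2.2, 3.19 and 3.26 TPM in starved Pachón cavefish, and 63.2, 28.8 and 51.1 TPM in refed surface fish, against 5.46, 7.74 and 6.78 TPM in starved surface fish. These too were apart, with log2 fold changes of 3.48 ± 0.35 (adjusted p = 0.000134) in Pachón cavefish and 2.61 ± 0.35 (adjusted p = 0.00119) in surface fish.

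hspa14 (ENSAMXG00000009721) works at the ribosome on nascent chains. It had 56.3, 35.2 and 30.1 TPM in refed Pachón cavefish, against 6, 6.38 and 8.09 TPM in starved Pachón cavefish, and 25.1, 17.1 and 26.4 TPM in refed surface fish, against 7.22, 11.9 and 10.4 TPM in starved surface fish. The groups were apart in both populations, with log2 fold changes of 2.37 ± 0.28 (adjusted p = 0.00023) in Pachón cavefish and 1.14 ± 0.28 (adjusted p = 0.018) in surface fish, where the call ended without replicate 3 of refed or replicate 1 of starved surface fish (up to 0.0646). hspa12b, an atypical HSP70 that mammals express in endothelium, rose by 1.78 ± 0.16 (adjusted p = 0.00012) and 1.68 ± 0.16 (adjusted p = 0.000399). hspa4l, a further HSP110, rose by 1.42 ± 0.38 in Pachón cavefish (adjusted p = 0.0153, and up to 0.0567 without replicate 1 of either Pachón group).

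hspa8 (ENSAMXG00000003027) encodes the constitutive HSC70 and had the highest mean of all members, 1156 TPM over the 12 libraries. It had 1199, 927 and 967 TPM in refed Pachón cavefish, against 881, 1117 and 869 TPM in starved Pachón cavefish, which overlapped, and 1394, 1497 and 1778 TPM in refed surface fish, against 1239.99, 792 and 1213 TPM in starved surface fish, where the refed libraries were above the starved ones. The log2 fold change was 0.11 ± 0.23 in Pachón cavefish (adjusted p = 0.761), a sign that turned with median-of-ratios scaling (-0.18), and 0.55 ± 0.23 in surface fish (adjusted p = 0.119). hsph1, the HSP105 gene, had 8.28, 10.9 and 7.24 TPM in refed Pachón cavefish, against 7.16, 4.23 and 7.43 TPM in starved Pachón cavefish, and was called in no comparison.

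**Figure D4:**
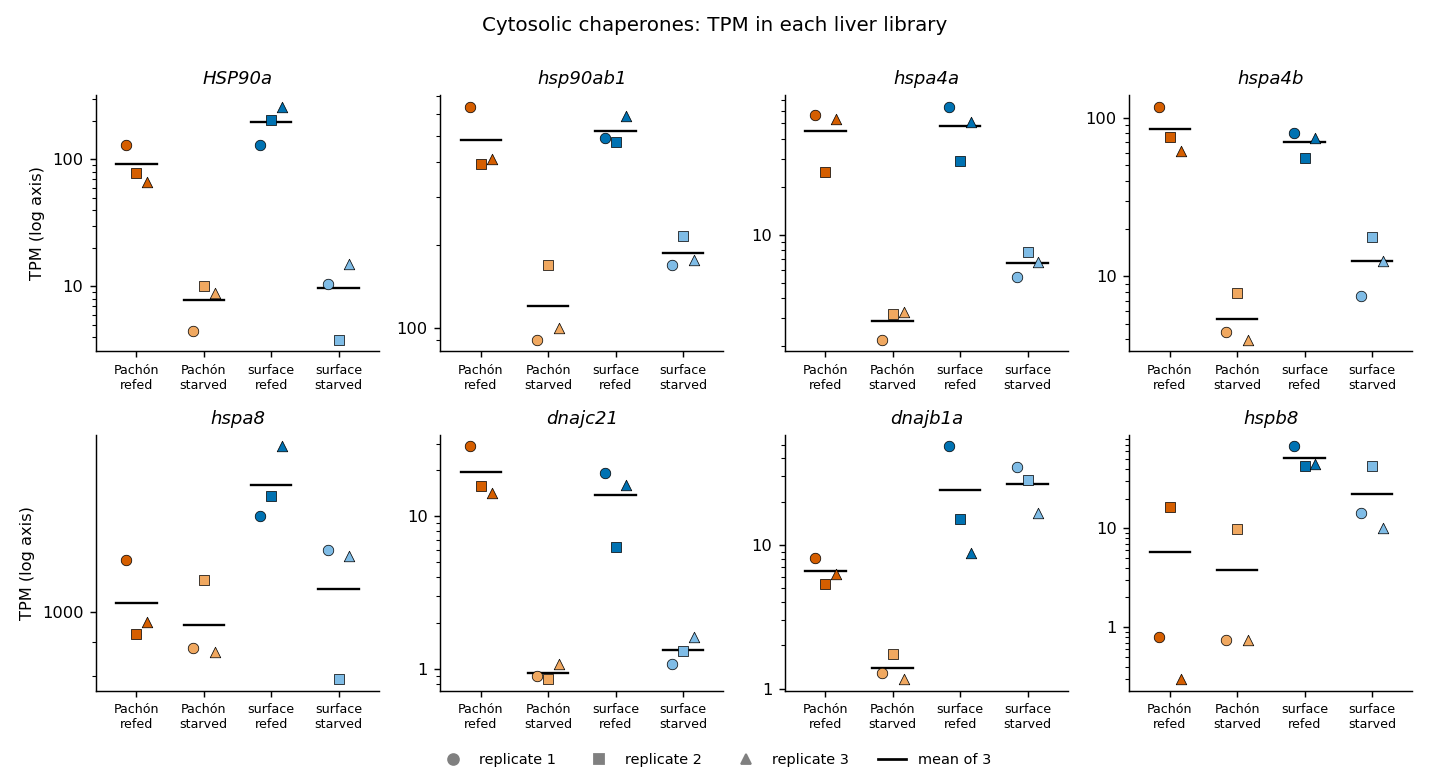
TPM of 8 cytosolic members in each library on a log axis, with groups in the order refed Pachón, starved Pachón, refed surface and starved surface. Points are libraries, shaped by replicate number, and bars are means of 3. HSP90a, hsp90ab1, hspa4a, hspa4b and dnajc21 separate refed from starved fish in both populations, hspa8 lies between 792 and 1778 TPM, and dnajb1a and hspb8 are lower in Pachón cavefish than in surface fish of the same feeding state.

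Among the 26 DnaJ members of cytosol, nucleus and vesicles 12 rose in Pachón cavefish and none fell, with a median log2 fold change of 0.62. There 22.9% of all genes rose and 7.64% fell. In surface fish 3 members rose and 1 fell, with a median of 0.33, where 9.03% of all genes rose and 9.68% fell. These surface counts do not set the members apart. dnajc21 (ENSAMXG00000008099), which acts in maturation of the large ribosomal subunit, had 28.8, 15.7 and 14.3 TPM in refed Pachón cavefish, against 0.9, 0.86 and 1.07 TPM in starved Pachón cavefish, and 19.2, 6.34 and 16 TPM in refed surface fish, against 1.08, 1.32 and 1.62 TPM in starved surface fish. Starved levels were near 1 TPM in both populations and refed ones several times higher. Refed over starved, the log2 fold change was 3.34 ± 0.36 in Pachón cavefish (adjusted p = 0.000156) and 2.55 ± 0.36 in surface fish (adjusted p = 0.00136). dnajc2, the partner of hspa14 at the ribosome, had 65.1, 33.4 and 29.3 TPM in refed Pachón cavefish, against 4.89, 8.36 and 5.79 TPM in starved Pachón cavefish, which were apart, with a log2 fold change of 2.51 ± 0.38 (adjusted p = 0.000701). In surface fish its log2 fold change of 1.09 ± 0.38 did not pass the test (adjusted p = 0.0685).

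The paralogs dnajb1b and dnajb1a encode the main heat-inducible HSP40 of the cytosol. dnajb1b had 20.1, 8.25 and 5.11 TPM in refed Pachón cavefish, against 2.47, 2.12 and 2.28 TPM in starved Pachón cavefish, and 19.2, 8.08 and 8.92 TPM in refed surface fish, against 1.98, 1.1 and 2.43 TPM in starved surface fish. The refed libraries exceeded the starved ones, by 1.69 ± 0.42 in log2 in Pachón cavefish (adjusted p = 0.0109) and 2.14 ± 0.42 in surface fish (adjusted p = 0.00679). dnajb1a (ENSAMXG00000037130) had 8.17, 5.34 and 6.27 TPM in refed Pachón cavefish, against 1.28, 1.73 and 1.17 TPM in starved Pachón cavefish, and 48.6, 15.3 and 8.78 TPM in refed surface fish, against 35.1, 28.3 and 16.6 TPM in starved surface fish. It was apart in Pachón cavefish, at 1.66 ± 0.49 (adjusted p = 0.0233, and up to 0.0828 without replicate 1 or 3 of either Pachón group), and overlapped in surface fish, at -0.41 ± 0.49 (adjusted p = 0.602), a sign that turned without replicate 3 of refed surface fish (0.10). The difference between the responses was 2.07 ± 0.69 (adjusted p = 0.202).

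dnaja1, a farnesylated HSP40, rose by 1.17 ± 0.36 in Pachón cavefish (adjusted p = 0.0304, and up to 0.108 without replicate 1 of either group, replicate 2 of refed or replicate 3 of starved Pachón cavefish). The other cytosolic DnaJ members called higher in Pachón cavefish had log2 fold changes between 0.49 and 1.53, with the largest for dnajc9, a histone cochaperone, whose call ended without replicate 3 of starved Pachón cavefish (0.0561). DNAJC13, which had the smallest, lost its call without any 1 of 5 Pachón libraries (up to 0.126), dnajc22 without any 1 of 10 libraries (up to 0.128) and DNAJC7 (1 of many) without replicate 1 of refed Pachón cavefish (0.0518). A cysteine string protein gene, dnajc5ab, rose by 1.03 ± 0.35 in Pachón cavefish (adjusted p = 0.046) and 1.13 ± 0.35 in surface fish (adjusted p = 0.0453), and each call ended without any 1 of 10 of the 12 libraries (up to 0.162 and 0.122). The one that fell in surface fish was dnajc24, which takes part in the synthesis of diphthamide on elongation factor eEF2. It had 1.15, 0.39 and 0.78 TPM in refed surface fish, against 2.15, 5 and 2.13 TPM in starved surface fish, with no overlap, and 3.4, 2.86 and 2.66 TPM in refed Pachón cavefish, against 2.56, 3.01 and 1.83 TPM in starved Pachón cavefish, which overlapped. In log2 terms the change was -1.16 ± 0.27 in surface fish (adjusted p = 0.0138).

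None of the 8 subunits of the CCT ring was called in either population. The median log2 fold changes were 0.30 in Pachón cavefish and 0.26 in surface fish, with a lowest adjusted p of 0.0914 and 0.304 by limma. At an unadjusted p under 0.05 there were 3 subunits in Pachón cavefish and 0 in surface fish. Of all 13157 genes tested 5404 had such a p in Pachón cavefish and 4350 in surface fish. The log2 fold changes of the subunits ran between -0.21 and 0.78 in Pachón cavefish and between -0.08 and 0.37 in surface fish. All refed Pachón libraries lay above all starved ones in 4 of 8 subunits, cct2, cct3, cct7 and cct8, where 35.7% of all genes did so. In surface fish 0 of 8 were apart in this way, where 14.9% of all genes were. With median-of-ratios scaling the Pachón median of the subunits was 0.01. For tcp1, the alpha subunit, the levels were 138, 84.2 and 101 TPM in refed Pachón cavefish, against 84.4, 127 and 95 TPM in starved Pachón cavefish, and 209, 193 and 179 TPM in refed surface fish, against 266, 125 and 255 TPM in starved surface fish. These groups overlapped in both populations.

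Of the 7 BAG cochaperones, several of which act as nucleotide exchange factors of HSP70, 3 rose in Pachón cavefish and none in surface fish. The shares of all genes that rose were 22.9% and 9.03%. bag4 rose by 1.68 ± 0.33 in log2 (adjusted p = 0.00305), and bag6 and bag6l, whose mammalian relative guards proteins on their way to the ER membrane, by 0.66 ± 0.19 and 0.52 ± 0.17. The bag6 call ended without 4 of the 6 Pachón libraries (replicate 1 of refed or any 1 of the starved, up to 0.0829), and the bag6l call without any 1 of the 6 or replicate 3 of starved surface fish (up to 0.122). bag3, which works with small heat shock proteins in the removal of aggregates, had 42.6, 39 and 47.9 TPM in refed Pachón cavefish, against 20.2, 31.7 and 48.7 TPM in starved Pachón cavefish, and was called in no comparison. The small heat shock protein hspb1 had 6.25, 10.3 and 9.35 TPM in refed Pachón cavefish, against 2.04, 3.12 and 1.84 TPM in starved Pachón cavefish, which were apart. Its log2 fold change of 1.52 ± 0.52 (adjusted p = 0.045) ended as a call without any 1 of the 6 Pachón libraries, replicate 3 of refed or replicate 2 of starved surface fish (up to 0.123).

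A gene named for its binding to HSPB1, hspbap1, went the other way. It had 2.05, 2.64 and 1.59 TPM in refed Pachón cavefish, against 8.05, 11.5 and 13.7 TPM in starved Pachón cavefish, and 1.45, 3.82 and 2.35 TPM in refed surface fish, against 17.5, 8.35 and 11 TPM in starved surface fish. In both populations all refed libraries were below all starved ones. It fell by 1.95 on the log2 scale in Pachón cavefish (adjusted p = 0.000933) and by 1.90 in surface fish (adjusted p = 0.00272).

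The mitochondrial DnaJ members divided. In Pachón cavefish 4 of 7 rose and 1 fell, with a median log2 fold change of 1.74, where 22.9% of all genes rose and 7.64% fell. In surface fish 1 rose and 2 fell, with a median of 0.41, where 9.03% of all genes rose and 9.68% fell. Counts this small do not set the 7 members apart in surface fish. The paralogs dnaja3b and dnaja3a encode the cochaperone of mitochondrial HSP70. dnaja3b had 19.8, 10.6 and 12.9 TPM in refed Pachón cavefish, against 1.81, 2.96 and 1.54 TPM in starved Pachón cavefish, and 14.1, 9 and 19.3 TPM in refed surface fish, against 4, 5.03 and 4.5 TPM in starved surface fish. It rose by 2.29 ± 0.30 in Pachón cavefish (adjusted p = 0.000324) and 1.40 ± 0.30 in surface fish (adjusted p = 0.00917), with no overlap in either. dnaja3a had 16.2, 9.17 and 10.2 TPM in refed Pachón cavefish, against 2.09, 3.03 and 2.64 TPM in starved Pachón cavefish, and 7.36, 6.06 and 7.45 TPM in refed surface fish, against 4.93, 4.57 and 5.42 TPM in starved surface fish. Its groups were apart in both, but only the Pachón log2 fold change of 1.81 ± 0.21 passed the test (adjusted p = 0.00023), against 0.41 ± 0.21 in surface fish (adjusted p = 0.208).

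dnajc11a, which is tied to the cristae of the inner membrane, and dnajc15, a part of the import motor, rose in Pachón cavefish by 1.74 ± 0.27 (adjusted p = 0.000866) and 1.78 ± 0.25 (adjusted p = 0.000452). dnajc28 was lower after the meal, with 0.34, 2.28 and 2.24 TPM in refed Pachón cavefish, against 6.06, 6.75 and 9.17 TPM in starved Pachón cavefish, and 1.11, 0.56 and 0.44 TPM in refed surface fish, against 3.83, 7.95 and 8.08 TPM in starved surface fish. In both populations the refed libraries were all below the starved ones. The change in log2 was -1.76 ± 0.36 in Pachón cavefish (adjusted p = 0.00376) and -2.12 ± 0.36 in surface fish (adjusted p = 0.00329). dnajc4 fell by 1.01 in surface fish (adjusted p = 0.0153). The 5 mitochondrial calls of Pachón cavefish stood under all alternatives tried.

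Other genes of the same pathways, taken from a list outside the name rule, were counted in the same way. Of 25 further genes of the cytosolic chaperone system 13 rose and none fell in Pachón cavefish, with a median log2 fold change of 0.97, where 22.9% of all genes rose and 7.64% fell. In surface fish 8 rose and none fell, with a median of 0.54, where 9.03% of all genes rose and 9.68% fell. stip1, which joins HSP70 to HSP90, rose by 2.57 ± 0.28 in Pachón cavefish (adjusted p = 0.000177) and 2.04 ± 0.28 in surface fish (adjusted p = 0.00136). tomm34, a cochaperone that guides precursors to mitochondria, rose by 2.78 ± 0.28 (adjusted p = 0.000134) and 2.33 ± 0.28 (adjusted p = 0.000826). The HSP90 cochaperone ptges3b (p23) had the largest log2 fold change of the 25 in Pachón cavefish, 2.95 ± 0.34 (adjusted p = 0.000218).

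Of 25 further ER quality control genes 8 rose and none fell in Pachón cavefish, with a median of 0.79, against the same 22.9% and 7.64% of all genes. In surface fish 3 rose and 2 fell, with a median of 0.22, which is near the 9.03% and 9.68% of all genes. uggt1, which marks misfolded glycoproteins for another round with calnexin, and ganab, the glucosidase that trims their glycans, rose by 2.27 ± 0.37 (adjusted p = 0.00102) and 2.24 ± 0.37 (adjusted p = 0.00103) in Pachón cavefish. In surface fish they rose by 1.54 ± 0.37 (adjusted p = 0.016) and 1.59 ± 0.37 (adjusted p = 0.0134). mbtps1, the site-1 protease that activates ATF6, fell in surface fish by 1.03 (adjusted p = 0.00507). The remaining calls in surface fish were derl2, a membrane protein of ER-associated degradation, which rose, and creb3l3b, a liver transcription factor released from the ER membrane, which fell. A further list held 12 genes of the integrated stress response, targets together with upstream parts such as its kinases. Of these 12 genes 2 rose and 2 fell in each population, with medians of 0.21 in Pachón cavefish and 0.17 in surface fish. Of all genes 22.9% rose and 7.64% fell in Pachón cavefish, with a median of 0.17, and 9.03% rose and 9.68% fell in surface fish, with a median of -0.04, so that counts this small do not set the list apart. In Pachón cavefish the called genes of this list were sesn2 and a copy of asns (asparagine synthetase), which rose, and nupr1a and cebpb, which fell. In surface fish they were a pair of asns copies, which rose, and nupr1a and nupr1b, which fell.

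Relative to starved surface fish, the starved Pachón cavefish had 1 member called higher and 7 lower, where 6.04% of all genes tested were called higher and 7.02% lower. The median log2 fold change, Pachón over surface, was -0.42 over the members and -0.13 over all genes. It was negative for 73 of the 93 members and for 7945 of the 13157 genes tested. The share of members called lower was close to that of all genes. All 3 Pachón libraries were below all 3 surface libraries in 25 members, where 20.9% of all genes were, and above them in 3, where 13.4% were. The starved groups here are also those of the refeeding comparisons, so the results are not independent. Over all genes the calls were 795 higher and 924 lower, against 1043 and 812 with median-of-ratios scaling and 933 and 853 with the 20 most abundant genes left out of the total.

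dnajb1a had the clearest difference, with 1.28, 1.73 and 1.17 TPM in starved Pachón cavefish, against 35.1, 28.3 and 16.6 TPM in starved surface fish. Each starved surface library was several times above each starved Pachón one. On the log2 scale the fold change was -3.48 ± 0.49 (adjusted p = 0.000945), and the call stood under all alternatives tried. Its paralog dnajb1b was not called. The protein disulfide isomerase pdia5 (ENSAMXG00000003302) had 2.8, 2.65 and 2.21 TPM in starved Pachón cavefish, against 8.66, 21.5 and 8.74 TPM in starved surface fish. These were apart, with a log2 fold change of -1.86 ± 0.30 (adjusted p = 0.00252) that also stood under all alternatives.

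The other calls were less firm. dnajc25 had 7.98, 15.1 and 7.2 TPM in starved Pachón cavefish, against 20.8, 33.2 and 23.3 TPM in starved surface fish, and was apart, with a log2 fold change of -1.31 ± 0.29 (adjusted p = 0.0134, and up to 0.0625 without replicate 1 or 3 of starved Pachón cavefish). dnaja1, dnajc27, dnaja3a and dnajc11a were lower, with log2 fold changes of -1.27 ± 0.36, -1.10 ± 0.30, -0.74 ± 0.21 and -0.94 ± 0.27 and adjusted p-values of 0.0418, 0.0336, 0.0434 and 0.0457. Each of these 4 calls ended without replicate 1 or 3 of starved Pachón cavefish or replicate 2 of starved surface fish, and without further single libraries (up to 0.165). dnajc5gb, of the cysteine string proteins that mammals carry on secretory vesicles, was the member higher in starved Pachón cavefish, by 1.07 ± 0.28 (adjusted p = 0.0299, and up to 0.107 without replicate 2 or 3 of starved Pachón cavefish or replicate 2 of starved surface fish).

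The ER members as a set had a median of -0.42 between the starved populations, with 2 of 31 called lower, and the sign turned without the high surface libraries. With replicate 2 of starved and replicate 3 of refed surface fish left out the median was 0.23. The 8 CCT subunits were all negative, with a median of -0.38, where 7945 of the 13157 genes tested were negative. None of the 8 was called with all libraries. The log2 fold change of tcp1 was -1.02 ± 0.31 (adjusted p = 0.0538), and without replicate 2 of starved surface fish it was -1.37 and passed the test (adjusted p = 0.00993).

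After the meal 4 members were higher and 3 lower in refed Pachón cavefish than in refed surface fish, where 9.82% of all genes were called higher and 3.62% lower. The median log2 fold change was 0.07 over the members and 0.18 over all genes, and that of all genes shifted to 0.02 with median-of-ratios scaling, where the split over all genes was 904 higher and 747 lower, against 1292 and 476. With the 20 most abundant genes left out of the total it was 1227 higher and 583 lower. The Pachón libraries were all below the surface ones in 18 members and all above in 11, where 10.5% and 25.3% of all genes were. These libraries, too, are shared with the refeeding comparisons.

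hspb8 (ENSAMXG00000029753), a small heat shock protein that works with BAG3, had 0.8, 16.3 and 0.3 TPM in refed Pachón cavefish, against 67.8, 42.4 and 44.5 TPM in refed surface fish. The Pachón libraries were all below the surface ones, with replicate 2 of the refed Pachón cavefish far above the others of its group. The log2 fold change was -3.90 ± 0.96 (adjusted p = 0.0212, and up to 0.0791 without replicate 1 or 3 of refed Pachón cavefish or replicate 1 or 2 of refed surface fish). After the fast it had 0.75, 9.82 and 0.74 TPM in starved Pachón cavefish, against 14.2, 42.8 and 9.98 TPM in starved surface fish, again with no overlap, and the log2 fold change of -2.60 ± 0.96 did not pass the test (adjusted p = 0.0986). pdia5 was lower in Pachón cavefish after the meal as well, at -1.03 ± 0.30 (adjusted p = 0.0425), a call that ended without any 1 of 9 libraries, all 6 Pachón and 3 refed surface ones (up to 0.129). bag2 was lower, with a log2 fold change of -1.26 ± 0.29 (adjusted p = 0.0156, and up to 0.0616 without replicate 2 or 3 of refed Pachón cavefish), at levels of at most 3.45 TPM.

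The 4 members higher in refed Pachón cavefish were dnajc10, dnajc24, dnajc15 and hspa12b. dnajc10 had 10.9, 7.01 and 5.85 TPM in refed Pachón cavefish, against 3.06, 1.61 and 4.31 TPM in refed surface fish. These were apart, with a log2 fold change of 1.18 ± 0.27 (adjusted p = 0.0137, and 0.051 without replicate 1 of refed Pachón cavefish). dnajc24 was higher by 1.18 ± 0.27 (adjusted p = 0.0142, and up to 0.0592 without replicate 1 of refed Pachón cavefish or replicate 2 of refed surface fish). The log2 fold changes of dnajc15 and hspa12b, 0.89 ± 0.25 (adjusted p = 0.0368) and 0.59 ± 0.16 (adjusted p = 0.0315), lost the call without any 1 of the 3 refed Pachón libraries or replicate 2 of refed surface fish, and each without 1 further refed surface library, replicate 3 for dnajc15 and replicate 1 for hspa12b (up to 0.121 and 0.105). All 8 CCT subunits were again negative, with a median of -0.32 and none called, where 4672 of the 13157 genes tested were negative. Of the 8 subunits 5 had all Pachón libraries below all surface ones, against 10.5% of all genes.

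**Figure D5:**
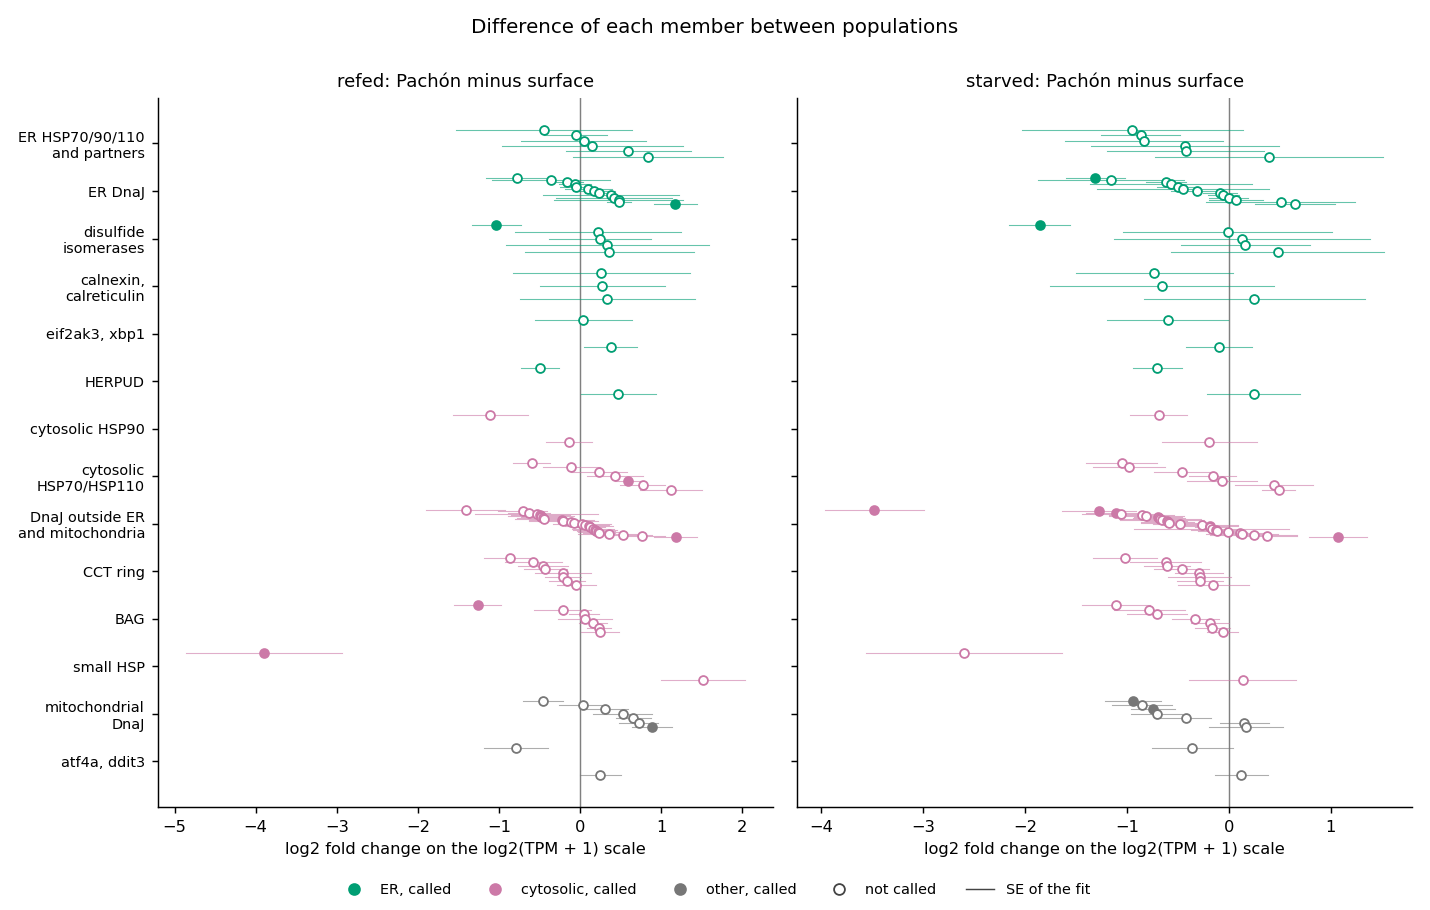
Log2 fold change of each member but hspbap1 between populations, Pachón over surface on the log2(TPM + 1) scale, by role, in refed fish (left) and starved fish (right). Bars are the standard error of the limma fit, and filled points are called at an adjusted p under 0.05. Few points are filled, dnajb1a and pdia5 lie left of 0 in starved fish, hspb8 lies furthest left in refed fish, and the 8 CCT subunits lie left of 0 in both panels.

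The difference in refeeding response, the Pachón log2 fold change minus the surface one, passed the test for none of the 93 members by limma (lowest adjusted p 0.122), where 0.0684% of all genes passed, 0.0608% with a higher and 0.0076% with a lower value in Pachón cavefish. At an unadjusted p under 0.05 there were 14 of the 93 members, 4 of the ER, 7 cytosolic and 3 mitochondrial. Of all 13157 genes tested 2176 had such a p, so this count does not set the members apart. The median difference was 0.41 over the members and 0.29 over all genes, and that of all genes was 0.03 with median-of-ratios scaling. The mitochondrial cochaperone dnaja3a came nearest, at 1.40 ± 0.30 (adjusted p = 0.122). All 7 mitochondrial members were positive with a median of 0.89, where 9347 of the 13157 genes tested were positive too.

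For hspa5 the difference was -0.24 ± 1.58 with a 95% confidence interval from -3.70 to 3.22 (adjusted p = 0.956), and its sign turned without replicate 1 or 2 of starved Pachón cavefish (0.10 and 0.16), replicate 3 of refed surface fish (0.74) or replicate 1 of starved surface fish (0.97). For hyou1 it was 1.26 ± 1.31, with an interval from -1.60 to 4.13 (adjusted p = 0.648). The interval of HSP90a was narrower, from -2.35 to 0.53 around -0.91 ± 0.66 (adjusted p = 0.497).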

How the data were processed

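RNA-seq of whole liver was deposited by the authors as TPM, a length-corrected share of all transcripts, per gene for 12 libraries, made from polyA-selected RNA with a stranded kit and single reads of 50 bases per the labels' protocols. The submitters' processing notes name bcl2fastq 2.18, STAR 2.6.1c, RSEM and Bowtie2; for the genome build, annotation and use of strand the sources used here give nothing. RSEM estimates how reads divide between similar copies, so pairs such as hspa4a and hspa4b, dnajb1a and dnajb1b, pdia6 and PDIA6 or calr3b and CALR3 are uncertain. No 2 of the 66 library pairs held identical values (0 of 66). The 6 ChIP-seq samples were not analysed here.

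From the deposited TPM, log2(TPM + 1) was fitted with 4 group means in limma 3.58.1 (R 4.3.3; empirical Bayes with trend, 8 residual and 3.30 prior degrees of freedom) for the 13157 of 27420 genes that reached 1 TPM in 3 or more libraries. P-values were adjusted by Benjamini-Hochberg over all 13157 genes and called under 0.05; 95% intervals are those of the fit. Values were not scaled further. The fit was tested on simulated data. Members were put into compartments by lists of gene names, and those on no list were counted as cytosolic. Among them the sites of dnajc14 and dnajc18, counted as cytosolic, and of dnajc4, counted as mitochondrial, are not known for this fish. Named members are those of the classical chaperone and stress genes plus the 10 largest called changes in each direction per comparison. The members and lists were chosen with earlier results of these data known. Alternatives were another pseudocount, other filters, other scalings, fewer libraries and a replicate block. The labels name no batch. TPM gives no depth, so no counting intervals are stated.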

Additional observations from a re-analysis of the deposited data

How the results depend on the processing

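Leaving out each of the 12 libraries in turn moved the genes called after refeeding in Pachón cavefish between 2769 and 4325 (ER members 7 to 22, cytosolic members 14 to 24), in surface fish between 1406 and 2387 (4 to 15, and 9 to 14), between the starved populations between 881 and 1794 (1 to 3, and 1 to 6), between the refed populations between 1077 and 1983 (0 to 2, and 1 to 6), and for the difference in response between 0 and 55 (0 to 0 in both sets of members). With no filter on low values, 10 ER members were called after refeeding in Pachón cavefish, 2 cytosolic members between the starved populations, and 21 genes for the difference in response. With at least 5 TPM in 3 libraries, 969 genes were called between the starved and 1017 between the refed populations, with 1 cytosolic member between the refed ones and 0 genes for the difference. Fits on only the libraries compared called 837 genes and 2 ER members after refeeding in surface fish, and 1 ER member between the starved and 1 between the refed populations. For the difference in response, a pseudocount of 0.1 or leaving out the 20 most abundant genes gave 1 call. With replicate 2 of starved and replicate 3 of refed surface fish both left out, an alternative chosen after seeing the data, 1469 genes and 11 ER members were called after refeeding in surface fish, 2 cytosolic members between the starved and 8 between the refed populations, and 4 genes for the difference. The cause of these shifts was not tested. Deviations of same-numbered libraries from their group means correlated at -0.25 to 0.12. Differently numbered libraries were not correlated for comparison, so whether the numbers pair libraries is not settled. With the replicate block, 3535 genes were called after refeeding in Pachón cavefish (ER 11, cytosolic 18) and 1911 in surface fish (5 and 11), 1298 between the starved (2 and 3) and 1352 between the refed populations (1 and 3), and 0 for the difference. No called member changed sign: 1331 of its repeated values stayed called and 300 did not. Uncalled members were followed one by one only where their fold change is given above, and the signs of the others were not checked. Among those followed, the sign turned for hspa8 in Pachón cavefish (-0.18 with median-of-ratios scaling, and -0.0039 to 0.23 without single libraries). It also turned for dnajb1a in surface fish (0.17 without both high libraries, and -1.07 to 0.10 without single ones). The hspa5 difference in response turned as well (-1.41 to 0.97 without single libraries).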
